A study of Homo sapiens with 6 samples.

Results

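Cholesterol and fatty acid synthesis was followed in HEK-293T cells through 43 named genes, chosen from a written list and matched by symbol to the Ensembl identifiers of the count tables. Each of the 43 symbols matched exactly 1 of the 62348 identifiers, and all 43 had enough counts to be tested. They cover the sterol pathway from acetoacetyl-CoA to cholesterol (19 genes), sterol transport (4), the regulators of the sterol regulatory element-binding proteins, SREBPs (6), and fatty acid synthesis, desaturation and elongation (14).

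The tested cells were a line made with CRISPR/Cas9 and a guide RNA against C17orf80, a gene now called MTNAP1 whose product is associated with mitochondrial DNA, and gave 3 libraries labelled knockout. The comparison cells had received a guide without a target and gave 3 libraries labelled WT. HEK-293T is an established human embryonic kidney line that expresses the SV40 large T antigen. Both groups were grown in DMEM with serum, which supplies lipoprotein cholesterol. The knockout line was selected as monoclonal with puromycin. The labels do not say how many clones or separate cultures gave the 3 libraries of a group, so the p-values describe a spread between libraries that may be technical, and a clone and the guide cannot be told apart.

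In the sterol pathway, acetyl-CoA is condensed to HMG-CoA, reduced to mevalonate, converted to isoprenoid units and joined to squalene, which is closed to lanosterol and trimmed to cholesterol. SREBPs are transcription factors held in the membrane of the endoplasmic reticulum; SCAP escorts them to the Golgi when sterol is scarce, INSIG proteins retain SCAP when it is plentiful, and the proteases encoded by MBTPS1 and MBTPS2 release the active fragment. SREBP2, from SREBF2, is best known for driving sterol genes, and SREBP1, from SREBF1, for driving fatty acid genes.

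Levels are TMM-scaled CPM, gene counts relative to the library's total gene count after a correction for library composition; they are not divided by gene length and are compared only between libraries for the same gene. Log2 fold changes are libraries labelled knockout over WT, with standard errors after ±, and errors of levels are SD over n = 3 libraries. A gene is termed called when its edgeR quasi-likelihood p, adjusted by Benjamini-Hochberg over all 17452 tested genes, is under 0.05. Gene counts per library ranged from 15942017 to 16122771 in the libraries labelled knockout and from 14982340 to 16278091 in WT.

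Replicate 1 labelled knockout stood apart. Its TMM factor was 0.851, against 1.03 in replicates 2 and 3, its mitochondrial genes took 11.9% of gene counts, against 4.53% and 5.00%, and 15.9% of its reads lay in no annotated feature, against 10.4% and 10.8%; in WT these shares were 4.65% to 4.71% and 8.75% to 9.87%. Among the 43 genes, it was at least 2-fold below the mean of replicates 2 and 3 for MVK, PMVK, MVD, LSS, TM7SF2, NPC2, SREBF1 and FADS3 and at least 2-fold above it for ACACA. Those 8 genes are 18.6% of the members, and 18.3% of all tested genes were as far below; the 1 gene above is 2.33%, against 8.64% of all tested genes. Across the 43 genes the log2 difference of replicate 1 from the other 2 had a Spearman's rho of 0.37 with the span of the gene, a description in which all points share the same libraries. The part of these library differences in the results was not tested, so counts of calls are given with and without replicate 1 labelled knockout. The C17orf80 transcript itself was higher in the libraries labelled knockout, at 56.4, 42.4 and 42.0 CPM against 25.8, 26.8 and 29.2 CPM in WT (log2 fold change 0.78 ± 0.17, edgeR adjusted p = 0.0232), so the transcript went against the label. Gene-level counts say nothing about the reading frame, and every direction given here is that of libraries labelled knockout. All 7 HEK-293T markers examined had counts in each library (summed level 565 to 619 CPM against 650 to 689 CPM in WT, LHX1 at no more than 11 counts). Within that sum NEFL was at 85.4, 63.4 and 61.0 CPM against 195, 189 and 199.9 CPM in WT, PAX2 was lower in all 3 libraries labelled knockout, and KRT8 was at 65.2, 124 and 97.5 CPM against 70.03, 66.1 and 67.5 CPM in WT. Summed, 5 markers of liver, leukocytes, endothelium and fibroblasts came to 0 to 0.0740 CPM against 0.130 to 0.613 CPM in WT, with PTPRC and COL1A2 at 0.

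Over all 6 libraries, 6 of the 43 genes were higher in the libraries labelled knockout and 0 were lower. HMGCS1 and MSMO1 belong to the sterol pathway, FASN and SCD make and desaturate palmitate, and ELOVL6 and ELOVL7 lengthen fatty acids. The 6 genes are 14% of the members, against 8.64% of all tested genes called higher. The 0 lower genes stand against 6.5% of all tested genes called lower. DESeq2 and limma-voom also called 0 members lower, where they called 1866 and 1235 of all 17452 genes lower. At an unadjusted edgeR p under 0.05 the members had 12 higher and 4 lower. The share of all genes at that unadjusted threshold was not computed, so these counts have no background to be read against. The median log2 fold change was 0.10 over the 43 genes and 0.0055 over all tested genes. In bulk RNA, fewer cells with a transcript and less of it per cell cannot be told apart.

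Without replicate 1 labelled knockout, 17 of the 43 genes were called higher and 9 lower. These are 39.5% and 20.9% of the members, against 22.3% and 21.7% of all tested genes in that fit, so the share of lower genes was close to that of all genes. Counts given below for single steps and lists are to be read against the same shares of all tested genes. Over all 6 libraries those shares were 8.64% higher and 6.5% lower. All 6 genes called over the full set were among the 17. Of the 43 log2 fold changes, 36 had the same direction in both fits. The fits share every library but replicate 1 labelled knockout, so such agreement is in part built in. Without regard to a test, 12 genes had all 3 libraries labelled knockout above all 3 WT libraries, and 7 had them all below; these are 27.9% and 16.3% of the members, against 23.5% and 24.1% of all tested genes.

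**Figure D1:**
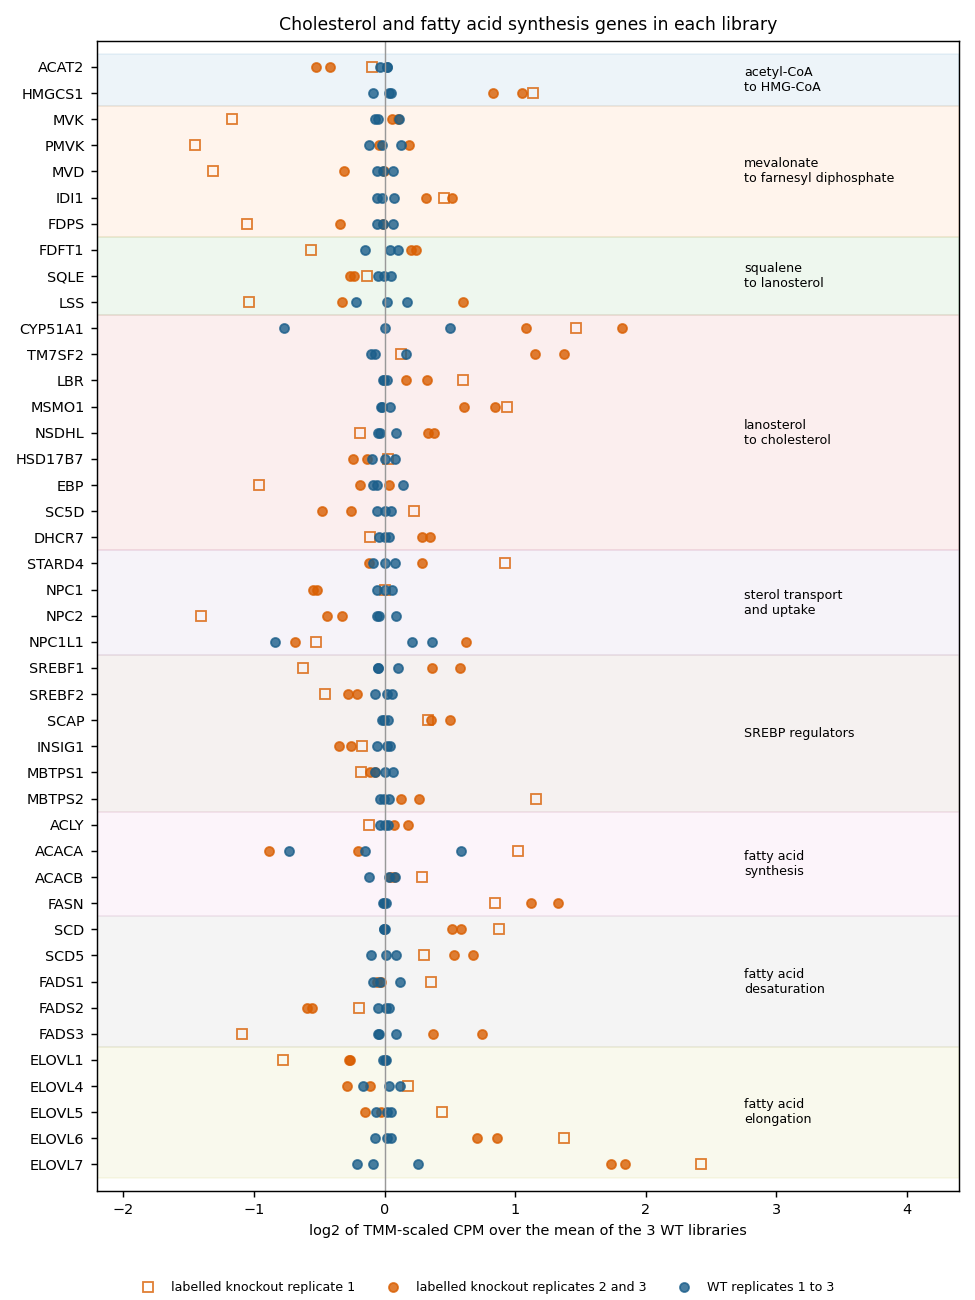
Level of each of the 43 genes in each of the 6 libraries, as the log2 of TMM-scaled CPM over the mean of the WT libraries (x axis), with genes in pathway order (y axis). Open squares are replicate 1 labelled knockout, filled orange circles replicates 2 and 3 labelled knockout, and blue circles WT; ELOVL7, FASN, HMGCS1, ELOVL6, MSMO1 and SCD have all orange symbols to the right of the blue ones, while MVK, PMVK and FADS3 have an open square far to the left of the other symbols.

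The entry into the pathway held one gene that rose and one whose level was lower in each library. HMGCS1 (ENSG00000112972, chromosome 5, 43287470 to 43313412 on GRCh38), the cytosolic synthase that makes HMG-CoA, was at 154, 125 and 145 CPM in the libraries labelled knockout and at 72.7, 65.9 and 71.8 CPM in WT. The groups did not overlap and the mean was 2.02-fold higher, 141 ± 15.1 against 70.1 ± 3.68 CPM in WT (log2 fold change 1.01 ± 0.14, edgeR adjusted p = 0.00512). The rise was about as large without replicate 1 labelled knockout, at 0.95 ± 0.08. ACAT2, the thiolase that condenses acetyl-CoA to acetoacetyl-CoA, was at 39.9, 29.7 and 32.0 CPM in the libraries labelled knockout and at 43.2, 41.6 and 43.4 CPM in WT. All 3 libraries labelled knockout were under the lowest WT library, but ACAT2 was not called over all 6 libraries (-0.34 ± 0.16, edgeR adjusted p = 0.179); it was lower without replicate 1 (-0.46 ± 0.09, edgeR adjusted p = 0.00024). Its span overlaps that of SOD2 and TCP1 in RefSeq. Reads tallied as ambiguous stayed out of the counts, but whether reads of the overlaps were among them is not known, since counting options are not given.

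From mevalonate to farnesyl diphosphate 0 of 5 genes were called over all 6 libraries. Without replicate 1 labelled knockout 1 gene was higher, against 22.3% of all tested genes. That gene was IDI1, the isomerase that interconverts the isoprenoid units, at 159, 145 and 167 CPM in the libraries labelled knockout and 111, 115 and 122 CPM in WT. Its groups did not overlap; the log2 fold change was 0.43 ± 0.13 over all libraries (edgeR adjusted p = 0.0620) and 0.43 ± 0.07 without replicate 1 (edgeR adjusted p = 3.74e-05). The kinases MVK and PMVK, the decarboxylase MVD and the farnesyl diphosphate synthase FDPS shared another pattern. In each, replicate 1 labelled knockout was below all 3 WT libraries. MVK, for example, stood at 12.9, 31.0 and 30.1 CPM in the libraries labelled knockout and 31.2, 28.0 and 27.5 CPM in WT, and PMVK at 8.73, 27.1 and 23.2 CPM against 26.1, 22.0 and 23.5 CPM in WT. Replicates 2 and 3 of both genes thus lay near or within the WT range. In MVD and FDPS replicate 3 labelled knockout was also below all 3 WT libraries, at 49.2 and 28.8 CPM, and replicate 2 lay within the WT range. The 4 log2 fold changes were -0.23 to -0.44 over all libraries and -0.16 to 0.09 without replicate 1, and none of the 4 was called in either fit.

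Squalene synthesis and cyclisation likewise gave no call over all 6 libraries. SQLE, the squalene epoxidase that is a rate-limiting step late in the pathway, was at 225, 206 and 210 CPM in the libraries labelled knockout and 246, 239 and 256 CPM in WT. The groups did not overlap (log2 fold change -0.21 ± 0.12, edgeR adjusted p = 0.263), and SQLE was lower without replicate 1 labelled knockout (-0.24 ± 0.06, edgeR adjusted p = 0.00305). FDFT1, the squalene synthase, and LSS, the cyclase that makes lanosterol, had replicate 1 labelled knockout below all WT libraries, replicates 2 and 3 of FDFT1 above them, and replicates 2 and 3 of LSS on either side. The edgeR adjusted p over all libraries was 0.986 for FDFT1 and 0.887 for LSS.

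Between lanosterol and cholesterol MSMO1 alone of 9 genes was called over all 6 libraries, and 6 were called higher and 1 lower without replicate 1 labelled knockout. Of all tested genes 8.64% were called higher over all libraries, and 22.3% higher and 21.7% lower without that replicate. MSMO1 (ENSG00000052802, chromosome 4, 165327669 to 165343164), the methyl sterol oxidase that starts the removal of a pair of methyl groups, was at 115, 91.7 and 108 CPM in the libraries labelled knockout and 59.5, 59.0 and 62.1 CPM in WT. The mean was 1.74-fold higher and the groups did not overlap (log2 fold change 0.80 ± 0.14, edgeR adjusted p = 0.0124; 0.74 ± 0.08 without replicate 1). NSDHL, the dehydrogenase that acts with it, was at 37.6, 53.7 and 55.4 CPM in the libraries labelled knockout and 45.3, 41.6 and 41.2 CPM in WT. It was not called over all libraries (0.20 ± 0.18) and was higher without replicate 1 (0.36 ± 0.09, edgeR adjusted p = 0.00128). HSD17B7, the ketosteroid reductase of the same demethylation, overlapped between the groups, with a log2 fold change of -0.11 ± 0.14.

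The reduction that follows the loss of the first methyl group can be made by TM7SF2 or by LBR, a lamin-binding protein of the inner nuclear membrane. TM7SF2 was at 14.6, 34.8 and 29.8 CPM in the libraries labelled knockout and 15.02, 12.8 and 12.5 CPM in WT. Replicates 2 and 3 labelled knockout lay above each WT library and replicate 1 within the WT range; the log2 fold change was 0.98 ± 0.31 over all libraries (edgeR adjusted p = 0.0752) and 1.27 ± 0.12 without replicate 1 (edgeR adjusted p = 4.48e-09). LBR was at 554, 410 and 458 CPM in the libraries labelled knockout and 369, 362 and 363 CPM in WT. All 3 libraries labelled knockout were above WT, with 0.38 ± 0.15 over all libraries (edgeR adjusted p = 0.127) and 0.26 ± 0.06 without replicate 1 (edgeR adjusted p = 0.00117). CYP51A1, the cytochrome P450 that removes that first methyl group, had few counts, with 34, 53 and 32 in the libraries labelled knockout and 14, 9 and 21 in WT. Its fitted log2 fold change of 1.48 ± 0.41 was not called (edgeR adjusted p = 0.0524), and was 1.5 ± 0.41 without replicate 1 (edgeR adjusted p = 0.0047). An antisense gene overlaps CYP51A1 in RefSeq, and whether the counts keep the strands apart is not known.

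The last steps moved in different directions in replicates 2 and 3 labelled knockout. DHCR7, the reductase that yields cholesterol, was at 149, 205 and 196 CPM in the libraries labelled knockout and 165, 156 and 162 CPM in WT. It was called higher without replicate 1 (0.33 ± 0.06, edgeR adjusted p = 0.000185), not over all libraries (0.19 ± 0.16). SC5D, the desaturase that acts just before it, was at 169, 104 and 121 CPM in the libraries labelled knockout and 150, 139 and 145 CPM in WT; it was called lower without replicate 1 (-0.35 ± 0.08, edgeR adjusted p = 0.000454), not over all libraries (-0.14 ± 0.19). The sterol isomerase EBP was at 7.17, 14.3 and 12.3 CPM in the libraries labelled knockout and 15.3, 13.4 and 13.1 CPM in WT, and was not called in either fit.

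**Figure D2:**
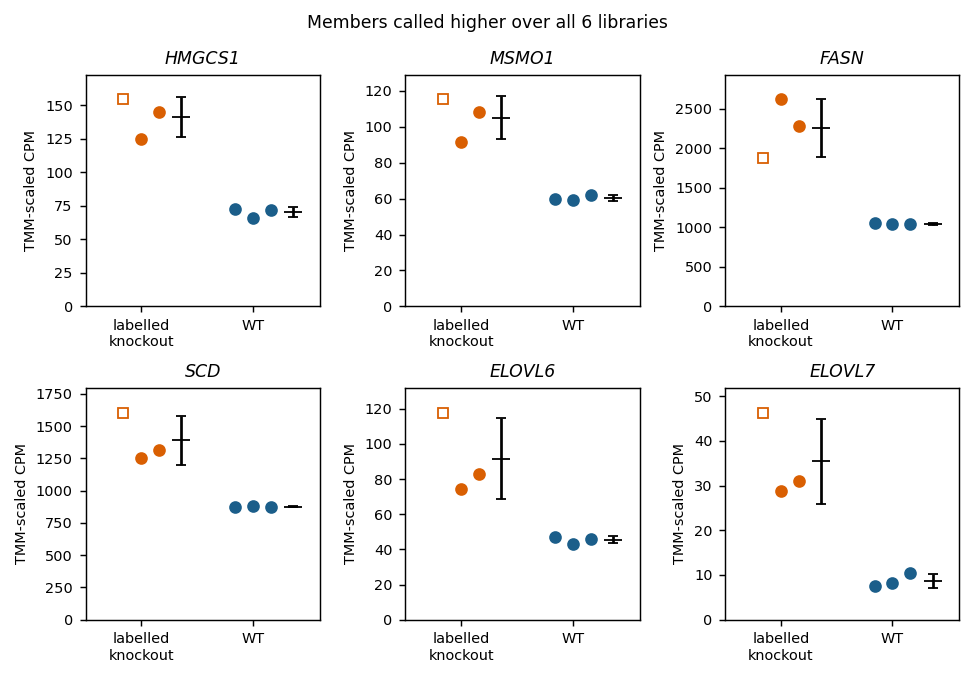
TMM-scaled CPM (y axis, from 0) of the 6 genes called over all 6 libraries, in libraries labelled knockout (left) and WT (right). Points are libraries, the open square is replicate 1 labelled knockout, and bars are the mean and SD of 3 libraries; all libraries labelled knockout lie above all WT libraries, by a mean fold of 1.59 for SCD to 4.08 for ELOVL7.

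Of the 4 genes that move sterol within or into the cell, 0 were called over all 6 libraries. Without replicate 1 labelled knockout 2 were lower, against 21.7% of all tested genes. Those 2 were NPC1 and NPC2, which hand cholesterol out of the lysosome. NPC1 was at 92.5, 64.4 and 63.2 CPM in the libraries labelled knockout and 88.6, 92.6 and 95.9 CPM in WT, with replicate 1 inside the WT range (-0.33 ± 0.18 over all libraries; -0.53 ± 0.08 without replicate 1, edgeR adjusted p = 4.07e-06). NPC2 was at 11.02, 21.5 and 23.3 CPM in the libraries labelled knockout and 28.1, 31.1 and 28.4 CPM in WT. Its groups did not overlap (-0.64 ± 0.27 over all libraries, edgeR adjusted p = 0.150; -0.37 ± 0.11 without replicate 1, edgeR adjusted p = 0.00603). STARD4, a cytosolic sterol carrier, had a log2 fold change of 0.43 ± 0.26 over all libraries and of 0.11 ± 0.10 without replicate 1. NPC1L1, the intestinal cholesterol importer, had 10, 27 and 11 counts in the libraries labelled knockout and 21, 10 and 20 in WT, too few to resolve a difference.

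None of the 6 SREBP regulators was called over all 6 libraries. Without replicate 1 labelled knockout 3 were higher and 2 lower. In that fit 22.3% of all tested genes were higher and 21.7% lower. SREBF2 was at 234, 278 and 264 CPM in the libraries labelled knockout and 335, 305 and 325 CPM in WT, so that all libraries labelled knockout were lower (log2 fold change -0.31 ± 0.13, edgeR adjusted p = 0.141; -0.24 ± 0.06 without replicate 1, edgeR adjusted p = 0.00274). INSIG1, the retention factor and itself a well-known SREBP target, was at 505, 448 and 477 CPM in the libraries labelled knockout and 588, 546 and 576 CPM in WT. Its groups did not overlap either (-0.26 ± 0.12, edgeR adjusted p = 0.186; -0.29 ± 0.06 without replicate 1, edgeR adjusted p = 0.000176). SCAP, the escort, was at 210, 236 and 214 CPM in the libraries labelled knockout and 170, 166 and 165 CPM in WT. It was above WT in each library (0.40 ± 0.12, edgeR adjusted p = 0.0689; 0.44 ± 0.06 without replicate 1, edgeR adjusted p = 5.52e-06).

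SREBF1, whose span overlaps that of RAI1, differed among the libraries labelled knockout. It was at 30.6, 70.4 and 60.5 CPM there and at 50.5, 45.4 and 45.5 CPM in WT, replicate 1 below and replicates 2 and 3 above all WT libraries (0.19 ± 0.29 over all libraries; 0.48 ± 0.09 without replicate 1, edgeR adjusted p = 7.63e-05). MBTPS1, the protease that makes the first SREBP cut, was at 168, 176 and 181 CPM in the libraries labelled knockout and 191, 199 and 181 CPM in WT, and was not called in either fit. MBTPS2, the intramembrane protease of the second cut, was at 187, 91.3 and 101 CPM in the libraries labelled knockout and 85.9, 83.5 and 81.8 CPM in WT. All 3 libraries labelled knockout were higher, replicate 1 most of all (0.59 ± 0.27, edgeR adjusted p = 0.176; 0.21 ± 0.08 without replicate 1, edgeR adjusted p = 0.0285).

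**Figure D3:**
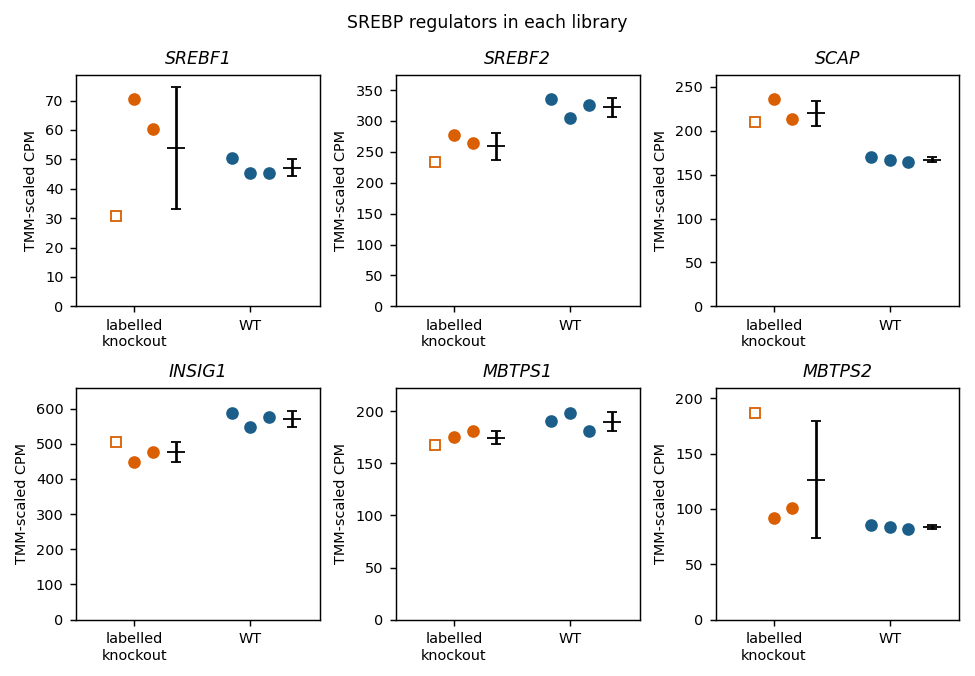
TMM-scaled CPM (y axis, from 0) of the 6 SREBP regulators in libraries labelled knockout (left) and WT (right); points are libraries, the open square is replicate 1 labelled knockout, and bars are mean and SD of 3 libraries. SREBF2 and INSIG1 lie lower and SCAP and MBTPS2 higher in all libraries labelled knockout, and SREBF1 has the open square below WT and the filled circles above it.

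The promoters of HMGCS1, MSMO1 and SCD, which rose, and of SREBF2 and INSIG1, which lay lower in each library labelled knockout, are shown because SREBPs act at such sites together with the CCAAT-binding factor NF-Y. The sequences are RefSeq windows on GRCh38.p14 of 250 bases before to 50 after the annotated start, given 5′ to 3′ on the gene's strand. Capitals mark TCACNCCAC, a form of the sterol regulatory element in which N is any base, CCAAT (or ATTGG, its reverse complement) and the E-box CACGTG. Both strands were searched without mismatches, so elements with other letters are not marked. No matches overlapped in these windows. They lie at chr5:43313363-43313662, minus strand (HMGCS1, the more upstream of its windows), chr4:165327419-165327718, plus strand (MSMO1), chr10:100346983-100347282, plus strand (SCD), chr22:41832855-41833154, plus strand (SREBF2) and chr7:155297628-155297927, plus strand (INSIG1).
HMGCS1: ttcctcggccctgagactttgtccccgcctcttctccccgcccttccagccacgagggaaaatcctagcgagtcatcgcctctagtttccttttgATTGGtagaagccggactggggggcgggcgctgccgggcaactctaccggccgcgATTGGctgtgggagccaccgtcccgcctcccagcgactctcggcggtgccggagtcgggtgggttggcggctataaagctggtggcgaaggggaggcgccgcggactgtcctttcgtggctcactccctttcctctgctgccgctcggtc
MSMO1: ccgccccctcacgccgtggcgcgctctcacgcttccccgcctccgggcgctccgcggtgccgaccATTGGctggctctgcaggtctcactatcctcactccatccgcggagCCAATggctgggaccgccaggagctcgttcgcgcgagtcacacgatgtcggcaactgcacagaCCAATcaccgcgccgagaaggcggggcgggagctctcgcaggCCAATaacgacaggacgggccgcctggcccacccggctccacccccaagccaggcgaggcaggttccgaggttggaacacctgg
SCD: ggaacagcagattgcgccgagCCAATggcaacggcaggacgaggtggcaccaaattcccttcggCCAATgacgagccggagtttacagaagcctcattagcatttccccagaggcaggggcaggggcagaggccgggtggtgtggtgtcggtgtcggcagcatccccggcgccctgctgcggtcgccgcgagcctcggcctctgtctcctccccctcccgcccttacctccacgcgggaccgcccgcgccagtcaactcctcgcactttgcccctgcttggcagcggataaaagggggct
SREBF2: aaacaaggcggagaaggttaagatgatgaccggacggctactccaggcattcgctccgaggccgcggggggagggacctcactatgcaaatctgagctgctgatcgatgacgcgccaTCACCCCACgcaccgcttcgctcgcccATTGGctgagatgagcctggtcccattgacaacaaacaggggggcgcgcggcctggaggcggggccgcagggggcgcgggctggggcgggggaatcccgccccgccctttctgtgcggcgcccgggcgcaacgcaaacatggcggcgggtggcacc
INSIG1: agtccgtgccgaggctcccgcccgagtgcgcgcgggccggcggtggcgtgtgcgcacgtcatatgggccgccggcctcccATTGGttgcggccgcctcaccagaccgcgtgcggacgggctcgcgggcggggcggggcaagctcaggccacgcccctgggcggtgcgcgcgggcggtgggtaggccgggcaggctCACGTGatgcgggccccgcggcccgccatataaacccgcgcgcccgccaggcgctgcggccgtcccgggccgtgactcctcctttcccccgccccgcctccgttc

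The MSMO1 window held 4 CCAAT matches, those of HMGCS1 and SCD 2 each, and that of INSIG1 a CCAAT match at -170 and an E-box at -55 from the start. The SREBF2 window held TCACCCCAC at -133 and a CCAAT match at -106. TCACCCCAC was the only match to TCACNCCAC among the member genes with a window, and other variants of the sterol element were not searched. RefSeq windows were found for 39 of the 43 genes, 50 windows in all, since some genes have several starts. At least 1 CCAAT match was present in 28 of these 39 genes, in 64% of their windows against 34.6% of all 35116 windows. The sterol element letters were in 2% of the members' windows and 1.13% of all windows, and the E-box in 14% and 7.26%. The windows of ELOVL6 and ELOVL7 held none of the 3 letter strings. FASN had no window and is named only. A match is a description of letters in this window and not a bound site.

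Fatty acid synthesis held 1 gene of 4 called higher over all libraries, against 8.64% of all tested genes. FASN (ENSG00000169710, chromosome 17, 82078338 to 82098236), the synthase that builds palmitate, was at 1877, 2621 and 2279 CPM in the libraries labelled knockout and 1057, 1044 and 1038 CPM in WT. The groups did not overlap, and the SD was 373 CPM in the libraries labelled knockout and 9.80 CPM in WT. The mean was 2.16-fold higher (log2 fold change 1.11 ± 0.16, edgeR adjusted p = 0.00548), and 2.35-fold higher without replicate 1 labelled knockout. The other 3 genes of this step were not called in either fit. ACLY, which supplies cytosolic acetyl-CoA from citrate, was at 505, 621 and 574 CPM in the libraries labelled knockout and 534, 558 and 549 CPM in WT (0.05 ± 0.13, edgeR adjusted p = 0.813; 0.14 ± 0.06 without replicate 1, edgeR adjusted p = 0.0512). ACACA and ACACB, are the acetyl-CoA carboxylases. ACACB was at 34.4, 29.1 and 29.8 CPM in the libraries labelled knockout and 26.1, 28.9 and 29.8 CPM in WT. ACACA had 119, 62 and 39 counts in the libraries labelled knockout and 60, 44 and 106 in WT, so that its libraries ranged widely in both groups. The span of ACACA overlaps 5 other RefSeq genes, C17orf78 among them, and whether reads there were left out as ambiguous is not known.

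Of 5 desaturation genes SCD alone was called over all libraries, and 3 were higher and 1 lower without replicate 1 labelled knockout. Against these counts, 8.64% of all tested genes were called higher over all libraries, and 22.3% higher and 21.7% lower without that replicate. SCD (ENSG00000099194, chromosome 10, 100347233 to 100364826), which introduces the double bond of oleate, was at 1605, 1252 and 1313 CPM in the libraries labelled knockout and 875, 880 and 874 CPM in WT. The groups did not overlap and the mean was 1.59-fold higher (log2 fold change 0.67 ± 0.14, edgeR adjusted p = 0.0234; 0.56 ± 0.05 without replicate 1 labelled knockout). Its paralog SCD5 was at 29.0, 37.6 and 34.1 CPM in the libraries labelled knockout and 25.0, 21.9 and 23.8 CPM in WT. All 3 libraries labelled knockout were above WT (0.51 ± 0.16, edgeR adjusted p = 0.0662; 0.62 ± 0.10 without replicate 1, edgeR adjusted p = 2.32e-05).

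The FADS genes, which lie side by side on chromosome 11, differed in what they showed. FADS2, the desaturase that opens polyunsaturated fatty acid synthesis, was at 30.3, 23.6 and 23.0 CPM in the libraries labelled knockout and 33.6, 35.6 and 34.9 CPM in WT. All libraries labelled knockout were lower (-0.44 ± 0.16, edgeR adjusted p = 0.104; -0.57 ± 0.10 without replicate 1, edgeR adjusted p = 4.82e-05). FADS1, which acts later on the same route, was at 204, 156 and 153 CPM in the libraries labelled knockout and 155, 172 and 149 CPM in WT, with overlap (0.10 ± 0.16; -0.03 ± 0.07 without replicate 1). FADS3, a related gene, was at 9.02, 32.2 and 24.9 CPM in the libraries labelled knockout and 18.7, 20.4 and 18.6 CPM in WT, called higher only without replicate 1 (0.57 ± 0.12, edgeR adjusted p = 0.000295). FADS1 and FADS2 overlap at their ends in RefSeq, and whether reads in the shared stretch were left out as ambiguous is not known.

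Elongation held the largest fitted fold change among the 6 called genes. ELOVL7 (ENSG00000164181, chromosome 5, 60751791 to 60844269), an elongase of long-chain acyl groups, was at 46.3, 28.8 and 31.1 CPM in the libraries labelled knockout and 7.48, 8.14 and 10.4 CPM in WT. The lowest library labelled knockout was still well above the highest WT library, a 4.08-fold higher mean (log2 fold change 2.03 ± 0.24, edgeR adjusted p = 0.00297) and 3.48-fold without replicate 1 labelled knockout. ELOVL6 (ENSG00000170522, chromosome 4, 110045846 to 110199202), which turns palmitate to stearate, was at 118, 74.4 and 82.8 CPM in the libraries labelled knockout and 47.3, 43.2 and 46.2 CPM in WT. It was 2.01-fold higher with no overlap (1.01 ± 0.20, edgeR adjusted p = 0.0173; 0.80 ± 0.08 without replicate 1). ELOVL1, which builds very-long-chain saturated acids, was at 40.2, 57.4 and 57.1 CPM in the libraries labelled knockout and 68.2, 69.3 and 68.9 CPM in WT. All 3 libraries labelled knockout were below WT (-0.42 ± 0.17, edgeR adjusted p = 0.141; -0.26 ± 0.08 without replicate 1, edgeR adjusted p = 0.00934). ELOVL4 and ELOVL5, of very-long-chain and polyunsaturated elongation, overlapped between the groups and were not called in either fit.

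**Figure D4:**
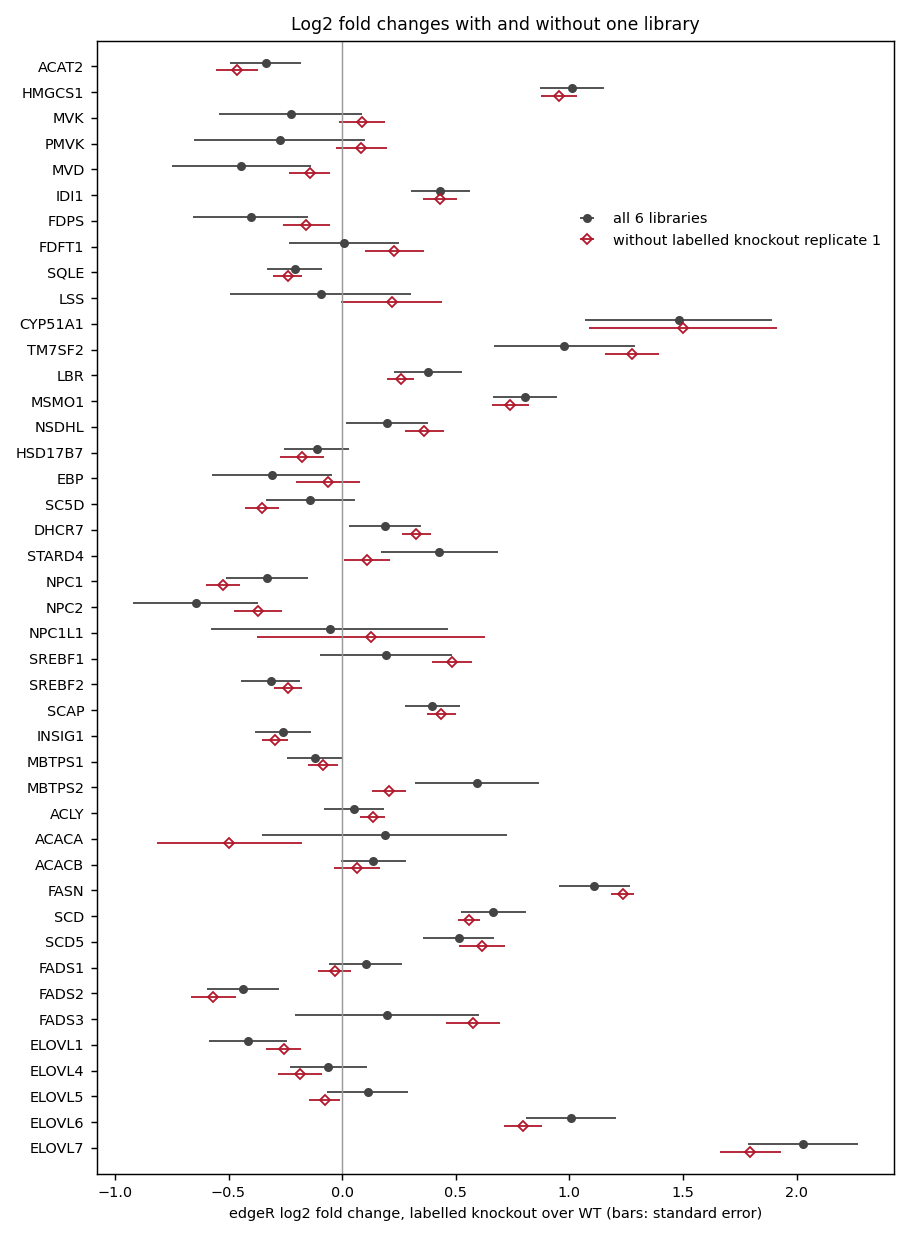
edgeR log2 fold change of each of the 43 genes (x axis), libraries labelled knockout over WT, over all 6 libraries (filled circles) and without replicate 1 labelled knockout (open diamonds), with bars of 1 standard error and genes in pathway order (y axis). The 6 genes called over all libraries lie right of zero by both estimates, while MVK, PMVK, LSS, NPC1L1, ACACA, FADS1 and ELOVL5 change side.

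Some steps have paralogs or related genes, whose ratio within a library does not depend on library scaling. Across 5 such pairs only FADS1 to FADS2 separated the groups over all 6 libraries. Its count ratios were 6.71, 6.62 and 6.66 in the libraries labelled knockout and 4.62, 4.85 and 4.28 in WT. Its log2 ratio was higher by 0.54 (two-sided exact permutation p = 0.1, the smallest that 3 against 3 libraries can give; adjusted p = 0.5 over 5 pairs), higher in 3 of 3 libraries labelled knockout. TM7SF2 to LBR, with ratios of 0.0265, 0.0850 and 0.0652 in the libraries labelled knockout and 0.0408, 0.0353 and 0.0345 in WT, had replicates 2 and 3 above and replicate 1 below all WT libraries (difference 0.52, exact permutation p = 0.4). SREBF1 to SREBF2 showed the same order, with ratios of 0.131, 0.254 and 0.229 in the libraries labelled knockout and 0.151, 0.149 and 0.140 in WT (difference 0.43, exact permutation p = 0.4). Without replicate 1 labelled knockout the differences were 1.02 for TM7SF2 to LBR, 0.72 for SREBF1 to SREBF2 and 0.54 for FADS1 to FADS2. They were 0.06 for SCD5 to SCD and 0.50 for ACACB to ACACA. SCD5 to SCD (-0.15, exact permutation p = 0.8) and ACACB to ACACA (0.06, exact permutation p = 1) overlapped between the groups.

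**Figure D5:**
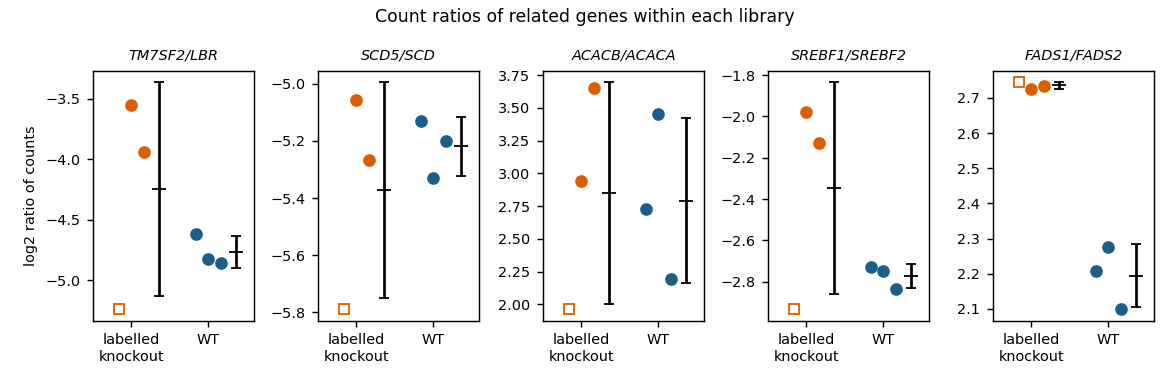
Log2 ratio of counts of 5 pairs of related genes within each library (y axis, a scale for each pair), in libraries labelled knockout (left) and WT (right). Points are libraries, the open square is replicate 1 labelled knockout, and bars are mean and SD of 3 libraries; FADS1/FADS2 is near 2.7 in the libraries labelled knockout and 2.1 to 2.3 in WT, and in the other 4 pairs the open square is the lowest point.

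Beside the members, 50 further genes of the pathway were examined, of which 49 were tested. Over all libraries 2 were called higher and 5 lower, and without replicate 1 labelled knockout 8 higher and 15 lower. The first counts are 4.08% and 10.2% of the tested genes, against 8.64% and 6.5% of all genes, and those without replicate 1 are 16.3% and 30.6%, against 22.3% and 21.7%. Among 6 genes of the liver X receptor circuit, which senses oxysterols, ABCG1, a sterol exporter, was lower, at 3, 10 and 11 counts in the libraries labelled knockout against 54, 53 and 45 in WT (log2 fold change -2.61 ± 0.42, edgeR adjusted p = 0.00883). MYLIP, a ubiquitin ligase of the same circuit that removes lipoprotein receptors, was higher, at 17.2, 18.3 and 22.4 CPM against 12.1, 10.8 and 10.2 CPM in WT (0.81 ± 0.18, edgeR adjusted p = 0.0247). These known targets of one receptor pair thus had opposite signs, and NR1H2, NR1H3, ABCA1 and LPCAT3 were not called in either fit.

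Of 10 isoprenoid branch genes 1 rose and 2 fell over all libraries, and 2 rose and 4 fell without replicate 1 labelled knockout. Among all tested genes 8.64% were higher and 6.5% lower over all libraries, and 22.3% and 21.7% without that replicate. COQ2, of coenzyme Q synthesis, was at 27.1, 27.5 and 27.1 CPM in the libraries labelled knockout and 18.9, 19.1 and 20.3 CPM in WT (0.49 ± 0.13, edgeR adjusted p = 0.0479). ICMT, the methyltransferase that finishes prenylated proteins, was at 121, 103 and 105 CPM in the libraries labelled knockout and 177, 167 and 180 CPM in WT (-0.67 ± 0.13, edgeR adjusted p = 0.0173). DHDDS, of dolichol synthesis, was at 19.5, 21.1 and 18.9 CPM in the libraries labelled knockout and 32.3, 29.6 and 30.3 CPM in WT (-0.63 ± 0.14, edgeR adjusted p = 0.0239). None of these 3 genes overlapped between the groups. Of all tested genes 23.5% had all libraries labelled knockout above WT and 24.1% had them all below.

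Of 10 genes supplying or using acetyl-CoA and NADPH 0 rose and 2 fell over all libraries, but 3 rose and 3 fell without replicate 1 labelled knockout. The shares of all tested genes were 6.5% lower over all libraries, and 22.3% higher and 21.7% lower without that replicate. ACSS2, which activates acetate, was at 24.1, 26.8 and 25.5 CPM in the libraries labelled knockout and 36.6, 37.1 and 38.7 CPM in WT (-0.56 ± 0.13, edgeR adjusted p = 0.0317). PGD, of the pentose phosphate pathway, was at 96.9, 115 and 113 CPM in the libraries labelled knockout and 159, 156 and 156 CPM in WT (-0.53 ± 0.13, edgeR adjusted p = 0.0357). Both lay below WT in each library labelled knockout, as did 24.1% of all tested genes. The 3 genes higher without replicate 1 were ME1, which makes NADPH from malate (0.35), MID1IP1, which promotes assembly of acetyl-CoA carboxylase (0.37), and LPIN1, a phosphatidate phosphatase (0.41). None of the 6 partners of the elongation cycle, the 8 genes of sterol-dependent protein turnover or the 9 tested genes of sterol esterification and transfer was called over all libraries. Without replicate 1 these lists had 0 higher and 1 lower (elongation partners), 0 and 2 (turnover) and 2 and 4 (esterification and transfer). ABCG1 was called in 12 of 14 alternative analyses, not without WT replicate 1 or 2. The other 6 called genes of these lists were called in 6 to 9 of the 14, and in no analysis that left out a WT library or replicate 3 labelled knockout; COQ2 was also not called without replicate 2 labelled knockout.

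The calls of the 6 genes depended on the libraries used. ELOVL7 was called in all 14 alternative analyses, HMGCS1 and FASN in 13, ELOVL6 in 11, and MSMO1 and SCD in 9. HMGCS1 had an edgeR adjusted p of 0.0505 without WT replicate 2, and FASN of 0.0538 without WT replicate 3. ELOVL6 was not called without any one of the WT libraries, and MSMO1 and SCD were in addition not called without replicate 3 labelled knockout. The direction of all 6 genes was the same in every alternative, with log2 fold changes of 1.80 to 2.17 for ELOVL7, 0.99 to 1.24 for FASN, 0.92 to 1.10 for HMGCS1, 0.80 to 1.14 for ELOVL6, 0.71 to 0.90 for MSMO1 and 0.56 to 0.74 for SCD.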

How the data were processed

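Poly(A)-selected RNA was sequenced from 3 libraries labelled knockout and 3 labelled WT. The deposited tables hold whole-number counts per gene, not normalised. Per the submitters' processing notes, HISAT2 2.2.1 and HTSeq 0.12.4 were among the tools, with GRCh38 as the build. Counting options are not given in the sources used here, and the kit is not stated to keep strand. Reads in no feature (8.75% to 15.9%) or ambiguous (9.74% to 12.5%) stayed out of library sizes and tests. The per-base coverage files were not used.

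Symbols came from a gene name table, which matched 99.8% of Ensembl identifiers, and coordinates from RefSeq. The spans of 28 members overlap another RefSeq gene, and those of 11 a protein-coding gene. Only some of these overlaps are named above. The test on these counts was the quasi-likelihood F test of edgeR 4.0.16 under R 4.3.3 (TMM, filterByExpr, group as the only term, Benjamini-Hochberg over all tested genes at 0.05). The standard error is the log2 fold change divided by the root of the F statistic. Ratios of gene pairs used a pseudocount of 0.5 and exact permutation tests. Alternatives were DESeq2 1.42.0, limma-voom (limma 3.58.1), other scaling and filters, leaving out each library in turn, and a block on replicate number. The code was tested on simulated data. Libraries of a group differed by more than counting noise and were each counted as 1 sample; this does not show that they came from separate cultures. Members, lists and tests were chosen with earlier results of these data known. Values are given per library for members called with or without replicate 1 labelled knockout, for SREBP regulators and for paired genes, and for other lists up to 2 called genes per direction; MVK, PMVK, EBP, ACLY, NPC1L1, ME1, MID1IP1 and LPIN1 and the 5 promoters printed were added after their values were seen.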

Additional observations from a re-analysis of the deposited data

How the results depend on the processing

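Over 43 genes, 6 were called higher and 0 lower. DESeq2 called 11 higher, adding CYP51A1, IDI1, SCAP, SCD5 and TM7SF2, and analysis without a scaling factor called 1 lower (FADS2). Leaving out each library gave 2 to 17 higher and 0 to 9 lower; the highest counts came without replicate 1 labelled knockout and the lowest on leaving out a WT library. A replicate block gave 4 higher and 0 lower, without MSMO1 and SCD. Of the other pathway genes DHDDS, COQ2, ICMT, MYLIP, ACSS2 and PGD were not called with it. COQ2, MYLIP and PGD were not called without a scaling factor, and COQ2 and ACSS2 not without a count filter. Deviations of same-numbered libraries from their group means had correlations of -0.0942, -0.0432 and -0.0019. Replicate 1 labelled knockout stood far from the rest of its group, so these values could hardly show a shared batch. The numbers were not taken to pair the samples because the labels do not state that they do. Over all genes tested, 1507 were called higher and 1134 lower, against 610 and 359 with the block and 2340 and 1866 by DESeq2; leaving out each library gave 401 to 4048 higher and 243 to 3927 lower. Changes of sign were seen only for genes and ratios not called over all 6 libraries. FDFT1 was at -0.0515 without a scaling factor, -0.0196 by limma-voom, -0.0254 without a count filter and -0.0289 with the block, and ACLY at -0.0251 without a scaling factor. With libraries left out, log2 fold changes ranged from -0.119 to 0.230 for FDFT1, -0.0157 to 0.135 for ACLY, -0.419 to 0.0884 for MVK, -0.568 to 0.0848 for PMVK, -0.625 to 0.218 for LSS, -0.590 to 0.179 for NPC1L1, -0.496 to 0.590 for ACACA, -0.0335 to 0.175 for FADS1, -0.0763 to 0.228 for ELOVL5, -0.353 to 0.00678 for SC5D, -0.0405 to 0.483 for SREBF1, -0.172 to 0.575 for FADS3 and -0.185 to 0.0438 for ELOVL4. The log2 ratios ranged from -0.308 to 0.0577 for SCD5 to SCD and -0.340 to 0.504 for ACACB to ACACA. The cause of these changes was not tested. NPC1L1, CYP51A1 and ACACA had too few counts for small differences to be detectable.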
